A study of Mus musculus with 4 samples.

Results

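The genes examined here encode the DNA replication machinery, from the proteins that mark origins to the enzymes that close the finished strands. They were taken as a list of 39 symbols chosen by function, and each symbol matched 1 of the 22367 protein-coding genes of the mm9 annotation (GENCODE vM1 on assembly NCBIM37). They lay on 12 chromosomes and measured from 3.24 to 216.0 kb, with a median of 16.1 kb against 15.4 kb over all protein-coding genes.

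The study profiled mouse embryonic stem (ES) cells of strain 129S1/SvImJ, grown in serum with LIF. WT cells were unmodified. G34R cells carried a glycine to arginine change in a single copy of H3f3a, expressed from its own promoter after Cre had removed a WT minigene and its selection cassette, while the other H3f3a copy and both copies of H3f3b were WT. H3f3a and H3f3b encode the same histone variant, H3.3, and the labels do not name the mutant clone. Each cell type gave 1 ChIP-seq library for H3K9me3 and 1 for H3K36me3, so that each of the 4 groups held 1 library.

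For each mark the data analysed here were a list of regions inside genes that had been called enriched in WT or in G34R cells. The lists do not give the cell type in which a region was enriched and hold no read values. The effect of G34R on the replication genes was therefore not analysed here, the depth behind each region is unknown, and with no replicates nothing below was tested. Comparisons with other genes are descriptions. The H3K36me3 list held 31593 regions (median 1000 bp) and the H3K9me3 list 32502 (median 800 bp), all made of 200 bp bins and at least 600 bp wide.

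The region lists hold no expression values, and expression data of the study were not analysed here. The labelled cell type was therefore checked only through the marks at marker genes. H3K36me3 lay in 9 of 10 genes typical of ES cells, with Dppa5a as the exception. It lay in 0 of 6 feeder fibroblast genes (Col1a1, Col1a2, Thy1, Vim, Lum and Dcn) and in 0 of 6 genes of differentiated cells (Pax6, Gata4, Gata6, Sox17, T and Cdx2). H3K9me3 lay in 1 of the 10 ES genes (Esrrb, over 18.3% of the gene and with 61 bins in both lists), in 4 of the 6 fibroblast genes and in 6 of 6 genes of differentiated cells. Over all protein-coding genes, H3K36me3 lay in 34% and H3K9me3 in 40.2%.

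Replication begins when the origin recognition complex (ORC), CDC6 and CDT1 load the MCM helicase onto DNA. CDC45 and the GINS complex then activate the helicase, and polymerases, a sliding clamp, nucleases and a ligase copy and seal the strands. Many of these genes are driven by E2F transcription factors at the entry into S phase, and ES cells divide rapidly. H3K36me3 is placed along the bodies of transcribed genes by SETD2, which travels with elongating RNA polymerase II. H3K9me3 is best known from silent chromatin, although it also occurs inside some transcribed genes.

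Single 200 bp bins from 4 genes show the DNA on which the 2 lists met or parted. Bins that hold any untranslated exon sequence were left out, and of the remaining bins of the gene in the named list the one with the most coding bases was taken. In Orc6 this left a bin with no coding base, and the bin of its region that holds coding sequence is not shown. The reference sequence (NCBIM37) is printed 5′ to 3′ on the strand of the gene, with coding bases in capitals. The Mcm3 bin lay in the H3K36me3 list alone, the Cdt1 and Lig1 bins in both lists, and the Orc6 bin, from an intron next to the gene start, in the H3K9me3 list alone.
Mcm3 chr1:20804801-20805000 (minus strand): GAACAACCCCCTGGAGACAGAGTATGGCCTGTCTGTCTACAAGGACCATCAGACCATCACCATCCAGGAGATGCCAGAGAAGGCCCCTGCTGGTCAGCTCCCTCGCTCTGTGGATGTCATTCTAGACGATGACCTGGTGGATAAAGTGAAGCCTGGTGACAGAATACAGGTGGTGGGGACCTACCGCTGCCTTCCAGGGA
Cdt1 chr8:125093801-125094000 (plus strand): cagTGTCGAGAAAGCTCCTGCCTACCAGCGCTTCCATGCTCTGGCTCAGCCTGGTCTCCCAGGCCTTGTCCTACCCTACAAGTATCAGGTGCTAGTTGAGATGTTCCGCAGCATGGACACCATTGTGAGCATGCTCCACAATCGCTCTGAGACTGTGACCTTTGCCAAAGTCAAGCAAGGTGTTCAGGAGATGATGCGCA
Lig1 chr7:13894401-13894600 (plus strand): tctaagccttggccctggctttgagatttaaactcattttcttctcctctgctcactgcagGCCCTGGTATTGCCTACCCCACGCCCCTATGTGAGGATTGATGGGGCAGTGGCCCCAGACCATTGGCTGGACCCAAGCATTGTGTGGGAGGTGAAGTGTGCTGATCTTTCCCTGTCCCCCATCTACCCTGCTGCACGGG
Orc6 chr8:87824001-87824200 (plus strand): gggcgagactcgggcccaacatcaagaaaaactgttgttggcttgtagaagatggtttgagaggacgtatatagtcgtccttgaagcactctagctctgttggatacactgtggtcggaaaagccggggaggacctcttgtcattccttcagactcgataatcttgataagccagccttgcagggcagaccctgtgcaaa
The Mcm3 bin was coding throughout and held 3 CpG at 56% G+C, and the Cdt1 bin, with 197 coding bases, held 5 CpG at 54% G+C. The Lig1 bin ran from an intron into 139 coding bases and held 2 CpG. The Orc6 bin held no coding base and 7 CpG at 50% G+C, the most CpG of the 4.

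The first question was how many replication genes carried each mark. H3K36me3 touched 38 of the 39 genes, or 97.4% (95% Wilson interval 86.8 to 99.5, which covers counting error only). The same held for 34% of all protein-coding genes and for 42.4% after matching on length, for which all genes were divided into 20 length classes weighted as among the replication genes. In all, 158 H3K36me3 regions met the replication genes and covered 434.1 kb of their 1097.3 kb. This was 39.6% of their bases, compared with 5.71% of the bases of all protein-coding genes.

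The share of the gene in the H3K36me3 list ran from 0% to 97.0% and had a median of 62.7% over all 39 genes. The 95% interval of this median, 42.3 to 81.2, covers only the spread between the listed genes and no spread between libraries. The median over all protein-coding genes was 0%, since most of them held no region. Among genes with the mark alone, the median was 63.9% for the 38 replication genes and 31.8% for other genes of the same length. At least 80% of the gene was covered in 13 replication genes, against 2.81% of genes at matched length. All 38 genes with H3K36me3 lay above the 50th percentile of coverage in their own length class. This only restates their count, since at most 48.8% of other genes in any class carried the mark. At or above the 95th percentile lay 15 of the 38.

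**Figure D1:**
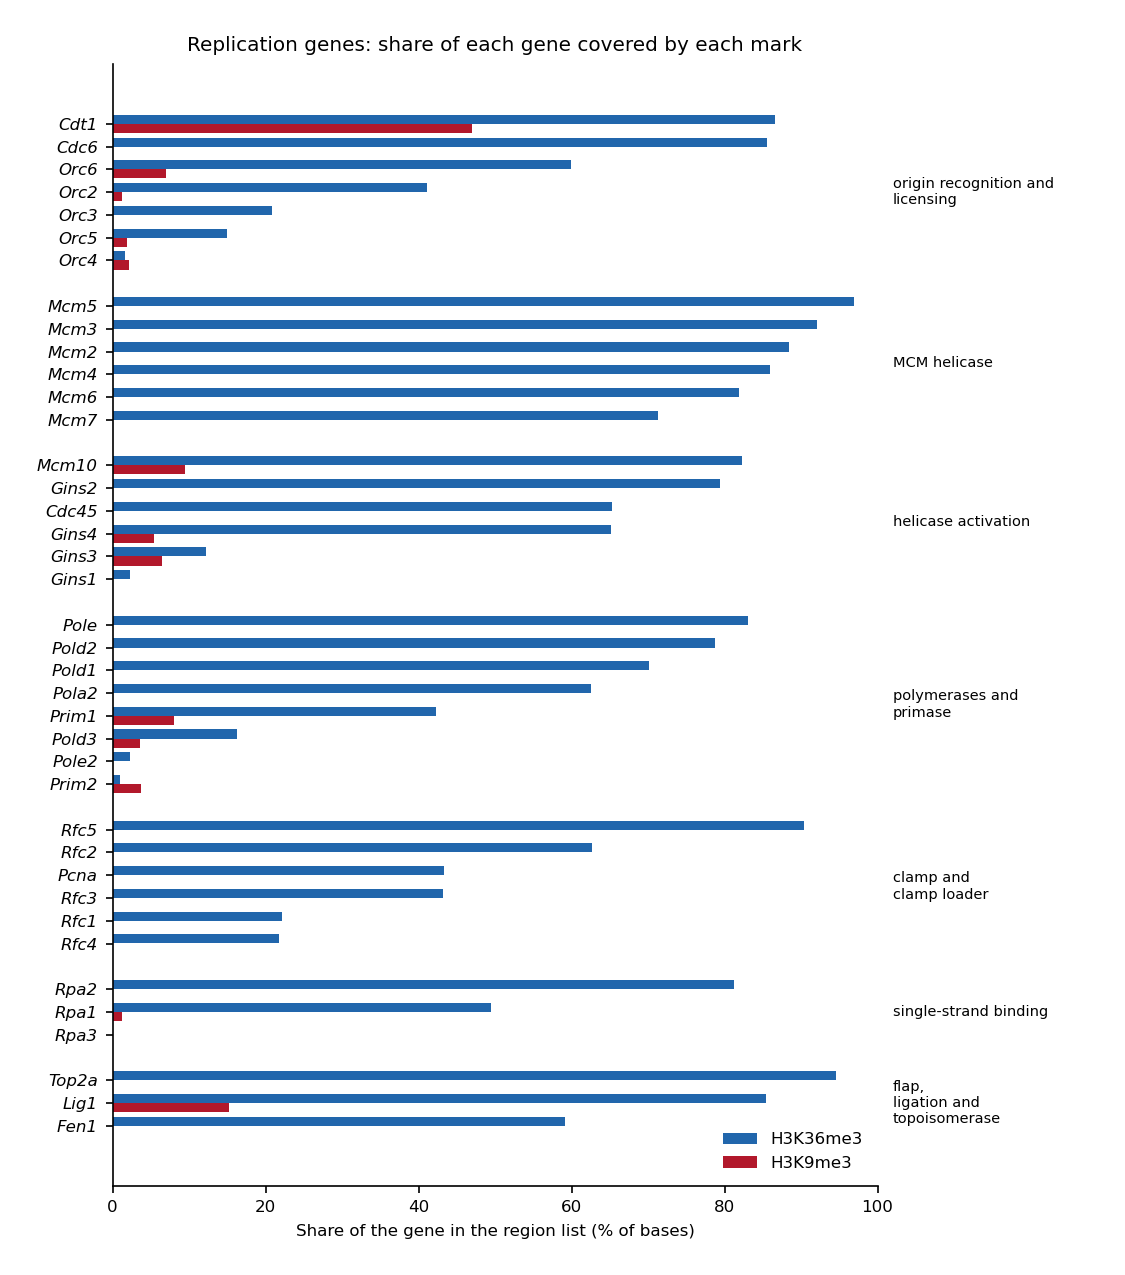
Share of each replication gene (percent of its bases) in the H3K36me3 and H3K9me3 lists, with 1 value per gene and the genes grouped by role. The MCM2 to MCM7 genes lie between 71.3% and 97.0% for H3K36me3 and have no H3K9me3, and Rpa3 is at 0% for both marks.

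The share of replication genes with H3K9me3 was close to that of other genes. The mark touched 13 of the 39 genes, or 33.3% (Wilson interval 20.6 to 49.0), compared with 40.2% of all protein-coding genes and 40.9% at matched length, both of which lie inside that interval. Each of the 13 also carried H3K36me3. Both marks were thus present in 33.3% of the replication genes, in 12.1% of all protein-coding genes and in 13.4% at matched length. With H3K36me3 in nearly every replication gene, this share follows the H3K9me3 count. The 24 H3K9me3 regions covered 2.34% of the bases of the replication genes, against 3.38% over all protein-coding genes, and 14 of them had the minimum width of 600 bp. When only regions of at least 1 kb were counted, H3K9me3 was left in 8 genes and both marks in 7.

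Coverage by H3K36me3 was lower in long genes. The 22 replication genes under 20 kb had a median share of 70.7%, which was 71.3% over the 21 with the mark (without Rpa3), and the 17 longer ones, all with the mark, a median of 41.1%. Other genes with the mark had medians of 42.7% and 14.6% in the same ranges. Across the 38 genes with the mark the rank correlation of share with length was -0.298, and it was -0.508 across 7571 other genes with the mark. The correlation of share with the exonic share of the gene was 0.527 and that with G+C content 0.550 across the 38 genes (0.488 and 0.335 across the others). Length, exonic share and G+C content vary together between genes, and genes of a list share its libraries, so that these values describe the list only.

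**Figure D2:**
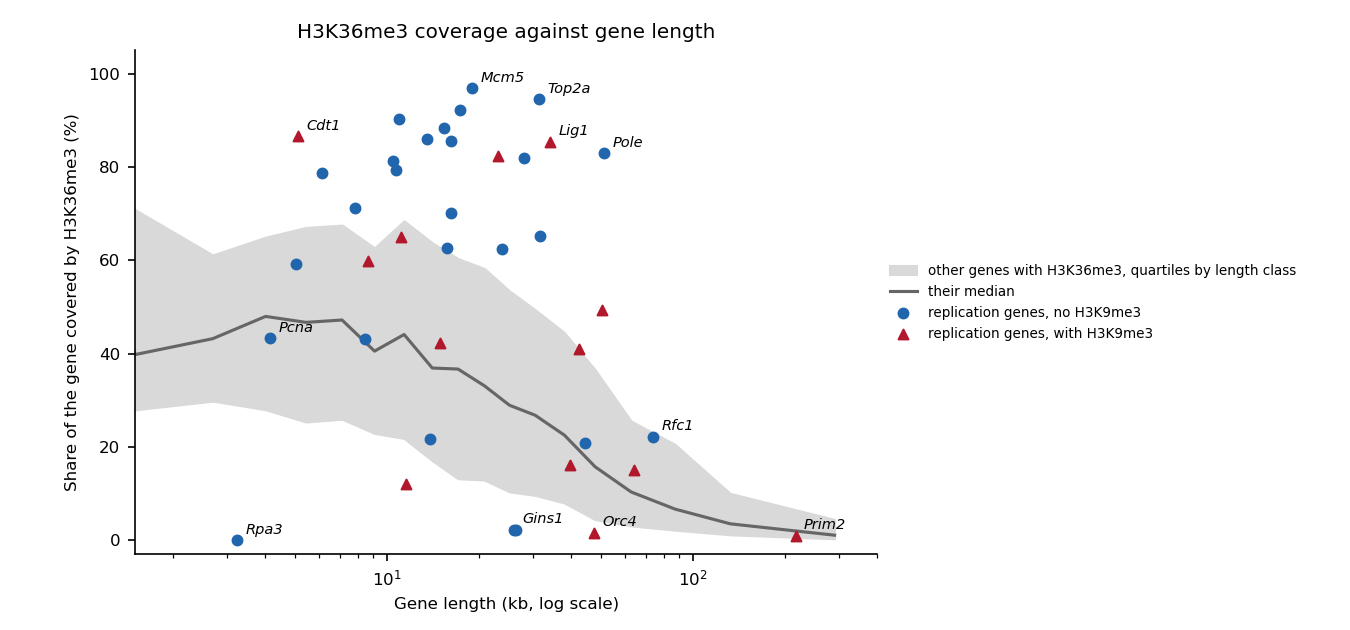
Share of the gene in the H3K36me3 list (percent) against gene length (kb, log axis) for the replication genes without H3K9me3 (circles) and with it (triangles), over the median (line) and quartiles (grey) of other genes with H3K36me3 in each length class. The shares fall with length, from a median of 70.7% under 20 kb to 41.1% above, and Pole at 51.2 kb and 83.0% stands high among the long genes.

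The genes for origin recognition and licensing varied widely. All 7 carried H3K36me3, over 1.69% to 86.6% of the gene with a median of 41.1%, and 5 of them also carried H3K9me3. At the same lengths, 42.5% of other genes carried H3K36me3 and 44.4% H3K9me3. The median length of the 7 genes was 42.3 kb. Cdt1 and Cdc6, which bring the helicase to ORC, were covered over 86.6% and 85.5%. Of the ORC subunits, Orc6 was covered over 59.9%, Orc2 over 41.1%, Orc3 over 20.8% and Orc5 over 15.0%. The Orc2 regions from 54.2% of the way along the gene also touched Nif3l1, so that the contributions of these genes cannot be told apart there. Orc4 (chr2:48758344-48805797) was lowest, with a single region of 0.8 kb that began 32.2 kb from the gene start. The short genes Cdt1, Cdc6 and Orc6 thus lay above the ORC genes of over 40 kb.

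The 6 genes of the MCM2 to MCM7 ring, which unwinds DNA at the fork, were the most evenly covered group. Their shares ran from 71.3% to 97.0% with a median of 87.2%, and none carried H3K9me3, which was present in 36.7% of other genes at the same lengths (H3K36me3 in 45.5%). Mcm5 (chr8:77633427-77652338) had the highest share of all 39 genes. A single region of 18.4 kb (chr8:77634001-77652400) began 0.574 kb after its start and ran past its end. Mcm3 (chr1:20793055-20810359) also had 1 region, of 16.0 kb, and was covered over 92.1%, from 1.36 kb after the start to the end of the gene. Mcm2 was covered over 88.4% by 2 regions, Mcm4 over 86.0% by 3 and Mcm6 over 81.9% by 10, which in Mcm6 came to 23.0 kb. Mcm7 (chr5:138605811-138613650) was the lowest at 71.3%. Its region reached 1.61 kb past the gene end into Cops6, and it spans the intronic miRNA genes Mir25, Mir93 and Mir106b.

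The 6 genes that activate the helicase all carried H3K36me3 and 3 carried H3K9me3, against 45.3% and 37.6% of other genes at the same lengths. Mcm10, which helps to start the assembled helicase, was covered over 82.3%, Gins2 over 79.3%, Cdc45 over 65.3% and Gins4 over 65.1%. By contrast, Gins3 was covered over 12.2% by a single region of 1.4 kb and Gins1 over 2.32% by a single region of 0.6 kb. Gins1 (chr2:150731136-150757016) still stood at the 51.8th percentile of its length class, because most genes of that class held no H3K36me3. The products of the 4 Gins genes form a complex of equal parts, whereas the coverage of their genes ran from 2.32% to 79.3%. The value for Gins2 includes part of a 26.4 kb region, of which 21.3 kb lay outside the gene and reached Gse1, so that signal from the neighbour and from Gins2 cannot be told apart there. All 3 Gins2 regions also touched Gm20388, a protein-coding model that overlaps the whole gene, so the same limit holds for the full Gins2 value.

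The polymerase genes showed a similar spread, from 1.02% to 83.0% with a median of 52.4% over 8 genes, all with H3K36me3 and 3 with H3K9me3 (41.8% and 47.6% of other genes at the same lengths). Pole (chr5:110715325-110766493), the catalytic subunit of the leading strand polymerase, had the greatest length covered of all replication genes, with 42.5 kb in 12 regions and a share of 83.0%. Pole2, its second subunit, had a single region of 0.6 kb, 25.6 kb from the start, and a share of 2.27%. For DNA polymerase delta, which copies the lagging strand, the shares were 78.8% for Pold2, 70.1% for Pold1 and 16.2% for Pold3. The Pold2 region ran 1.38 kb past the gene end and touched Aebp1. Of the genes of the priming complex, Pola2 was covered over 62.5% and Prim1, the catalytic subunit of the primase, over 42.3%. Prim2 (chr1:33510656-33726631), its large subunit and the longest gene of the list, had 2 regions and the lowest share of any gene with the mark, 1.02%. In its length class 21.1% of genes carried H3K36me3, and Prim2 lay at the 88.8th percentile.

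All 6 genes of the sliding clamp and its loader carried H3K36me3 and none carried H3K9me3. Among other genes of the same lengths 40.8% and 37.6% carried these marks. Pcna, the clamp, was covered over 43.3% by 2 regions. Among the loader subunits the share was highest in Rfc5 (chr5:117828112-117839056) at 90.4%, followed by Rfc2 at 62.7%, Rfc3 at 43.2%, Rfc1 at 22.2% and Rfc4 at 21.7%. The single region over Rfc5 was 19.6 kb wide and 9.71 kb of it lay beyond the gene in Wsb2, so here too the contributions of the neighbours cannot be told apart.

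RPA coats single-stranded DNA and is made of 3 subunits. Rpa2 was covered over 81.2% and Rpa1 over 49.4%, which came to 24.8 kb. Rpa3 (chr6:8205936-8209173), at 3.24 kb the shortest of the 39 genes, held neither mark. In its length class 21.7% of genes carried H3K36me3. The list does not show whether reads of this mark were absent from Rpa3 or below the threshold of the list.

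All 3 genes for the enzymes that finish the strands and untangle them carried H3K36me3, against 41.5% of other genes at the same lengths, and Lig1 also carried H3K9me3. Top2a (chr11:98854257-98885503), the topoisomerase of dividing cells, held 29.5 kb of H3K36me3 in 2 regions and had a share of 94.5%, at the 99.7th percentile of its length class. Lig1, the ligase that joins Okazaki fragments, held 29.2 kb in 4 regions with a share of 85.4%. Fen1, the nuclease that removes their flaps, was covered over 59.1% by 2 regions. The 5 highest shares of the 39 genes were those of Mcm5, Top2a, Mcm3, Rfc5 and Mcm2, and the 5 greatest lengths those of Pole, Top2a, Lig1, Rpa1 and Mcm6.

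The second question was where in the genes the marks lay. H3K36me3 began at a median of 2.53 kb after the start of the gene (0.574 to 32.2 kb over the 38 genes), compared with 4.65 kb in other marked genes of the same length. It reached the end of the gene in 19 of the 38, or 50% against 32.2%. Each gene was then divided into 10 equal parts. In the first part a mean of 8.55% of bins were in the list. The mean was 39.4% in the second part, 64.2% in the fifth, 71.0% in the ninth and 68.1% in the last. In other marked genes of the same length the first part was at 3.92%, the second at 16.0%, the fifth at 39.3% and the ninth at 51.8%. The last 5 parts held 58.7% of the H3K36me3 bins (1280 of 2179) of the replication genes and 65.8% of those of the other genes. With each replication gene weighted equally the value was 64.0%, so that no difference from the other genes is read from it. Coverage was therefore low at the start in both sets, and in the replication genes it was higher in each part.

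**Figure D3:**
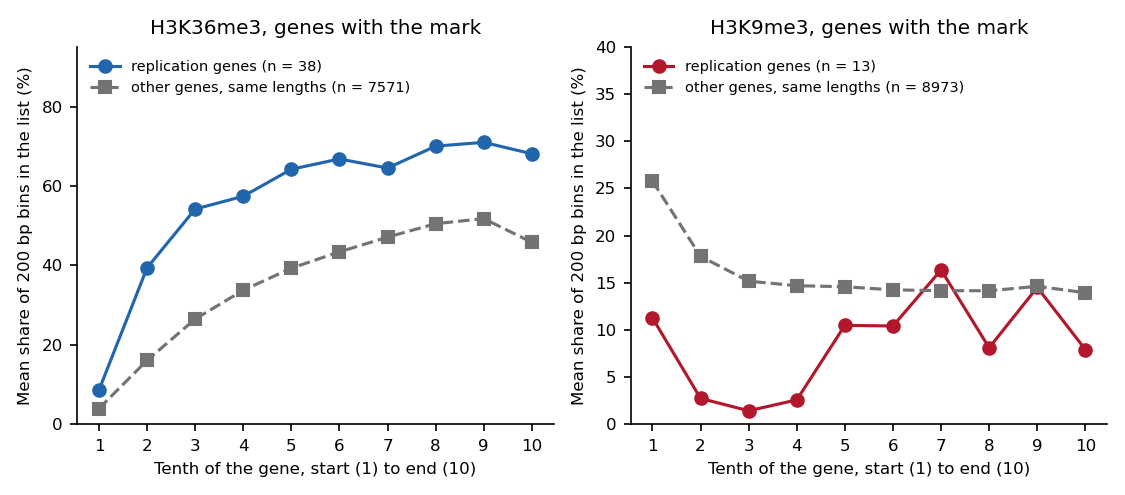
Mean share of 200 bp bins (percent) in each list for each of 10 equal parts of the gene, from start to end in the direction of transcription, over genes that carry the mark. For H3K36me3 the 38 replication genes lie above other genes of the same length in all 10 parts, from 8.55% in the first to 71.0% in the ninth. For H3K9me3 the 13 replication genes vary between 1.41% and 16.4%. Other genes of the same length with H3K9me3 lie between 13.9% and 25.8%, above the replication genes in every part but the seventh.

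Within 1 kb of the gene start, H3K36me3 was found in 3 genes, Mcm5, Cdc6 and Cdt1. This is 7.69% of the replication genes, against 1.89% of all protein-coding genes and 1.61% at matched length. These shares also reflect that more of the replication genes carried the mark at all. In genes with the mark, 2.63% of the bins within 1 kb of the start (6 of 228) were in the list. The value was 2.15% in other marked genes of the same length, and no difference at the start is read from so few bins. Of the coding bins in genes with the mark, 74.4% were in the H3K36me3 list, compared with 57.3% in other marked genes of the same length. Untranslated bins reached 63.1% against 35.9% and introns 32.5% against 17.4%. Introns are the largest part of these genes and accordingly held 61.4% of the marked bins, while coding sequence held 29.1%.

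**Figure D4:**
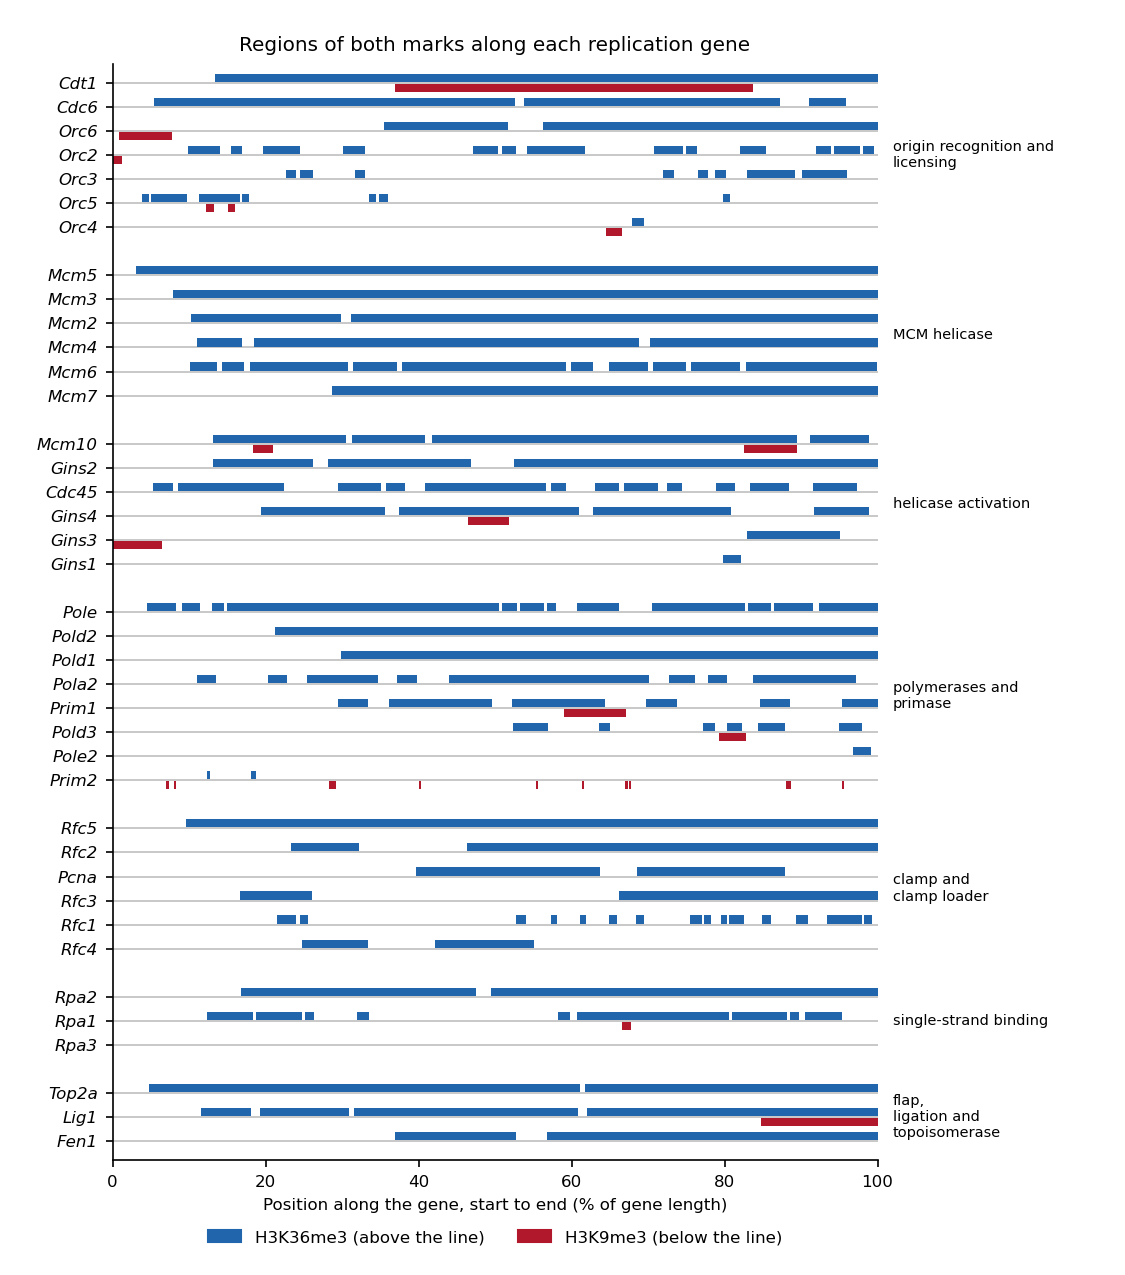
Position of every H3K36me3 and H3K9me3 region along each replication gene, in percent of the gene from its start (0) to its end (100). H3K36me3 fills most of the MCM genes, Pole, Lig1 and Top2a after a gap at the start, whereas H3K9me3 lies at the start in Orc2, Orc6 and Gins3, over 46.9% of the gene in the middle of Cdt1, at the end in Lig1 and in separate narrow regions within the other 8 genes that carry it.

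The H3K9me3 regions fell into several kinds by position. Within 1 kb of the gene start they were found in Orc2, Orc6 and Gins3, that is in 7.69% of the replication genes (Wilson interval 2.65 to 20.3). The share was 18.5% of all protein-coding genes and 17.2% at matched length. Both lie inside that interval, so that no difference is read from these 3 genes. The Orc6 region (chr8:87823601-87824200) began 0.07 kb after the start and covered 6.94% of the gene. The Gins3 region (chr8:98157401-98158200) ran from 0.058 kb before the start to 0.741 kb after it and covered 6.45% of the gene. Both were rich in CpG, with 7.67 and 6 CpG per 100 bp, and held no bin in the H3K36me3 list. The other 22 H3K9me3 regions held 0.417 to 3 CpG per 100 bp. In Orc2 the region was 9.8 kb wide (chr1:58561401-58571200), but only 0.553 kb of it (1.31% of the gene) lay in Orc2, and the remainder lay upstream over the lincRNA gene Gm15834.

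In Cdt1 and Lig1 H3K9me3 lay more than 1 kb from the annotated gene start and on the H3K36me3 regions. This position depends on the definition of the start. Cdt1 counted as marked at the start with a distance of 2 kb, and Lig1 with the start of any coding transcript. The Cdt1 region (chr8:125093801-125096200) was 2.4 kb wide and covered 46.9% of the gene, the largest H3K9me3 share of the 39. Of its 12 bins 10 held coding sequence and all 12 were also in the H3K36me3 list. Cdt1 lies within the annotated span of another protein-coding model, Gm20388, and its H3K36me3 region continues into Aprt. The Lig1 region (chr7:13891601-13896800) covered 15.2% of the gene, from 84.8% of the way along to the end, and all of its 26 bins were in both lists. The printed bins of Cdt1 and Lig1 come from these stretches.

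Other H3K9me3 regions were short and lay inside the gene. Mcm10 held 2, of 0.6 kb (chr2:4929001-4929600) and 1.6 kb (chr2:4913201-4914800), which covered 9.53% of the gene and shared all 11 bins with the H3K36me3 list. Orc5 held 2 intronic regions of 0.6 kb (chr5:22046001-22046600 and chr5:22047801-22048400), which covered 1.88% of the gene with all 6 bins shared. Single regions of 0.6 kb in Gins4 (chr8:24342401-24343000, intronic) and Rpa1 (chr11:75127801-75128400, with 1 coding bin) covered 5.43% and 1.20% of these genes and were also shared in all 3 bins each. These genes resemble Cdt1 and Lig1 in that the whole H3K9me3 region lay on H3K36me3.

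Prim1 held an intronic region of 1.2 kb (chr10:127461001-127462200) over 8.07% of the gene with 4 of 6 bins shared, and Pold3 a region of 1.4 kb (chr7:107237401-107238800) over 3.55% with 4 of 7 shared. Orc4 held an intronic region of 1.0 kb (chr2:48774201-48775200) over 2.11% of the gene with no shared bin. Prim2 held the most, 10 intronic regions that together came to 8.0 kb or 3.70% of the gene and lay 15.2 to 206 kb from its start, with no bin in the H3K36me3 list. Of the 13 genes with H3K9me3, the 3 with the lowest H3K36me3 shares (Prim2, Orc4 and Gins3) thus had no bin in both lists, and neither did Orc6 and the part of the Orc2 region inside Orc2. Upstream of Orc2 that region held 4 bins in both lists.

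At least 1 bin of the gene lay in both lists in 8 replication genes (Mcm10, Orc5, Cdt1, Gins4, Prim1, Pold3, Rpa1 and Lig1), or 20.5%, against 7.14% of all protein-coding genes and 7.94% at matched length. A shared bin requires both marks in the gene. These were present together in 33.3% of the replication genes and in 13.4% of genes at matched length. The shares with a shared bin are therefore not read as a difference in how the marks overlap. In the 13 genes with both marks, 53.5% of the H3K9me3 bins (69 of 129) were in the H3K36me3 list. In other genes of the same length with both marks this share was 40.5%. The pooled value rests on single genes, since without Lig1 it was 41.7% (43 of 103) and without Prim2 77.5% (69 of 89), so that no difference from other genes is read from it. As each list joins WT and G34R cells, a shared bin does not show that both marks were enriched in the same cells.

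H3K9me3 was more common on chromosome 8 than elsewhere, and 57.8% of all its protein-coding genes carried the mark. Of the 6 replication genes there (Mcm5, Orc6, Cdt1, Gins2, Gins3 and Gins4), 4 carried it, a share near that of the chromosome. On the other chromosomes it was found in 9 of 33 replication genes and in 39.3% of all genes. H3K36me3 was found in 6 of 6 replication genes on chromosome 8, where 47.6% of all genes carried it, and in 32 of 33 on the others, where 33.3% did.

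Sequence present in several copies in the genome was rare under either mark. The central 50 bases had more than 1 exact copy in 31 of 2179 H3K36me3 bins (1.42%) and in 6 of 129 H3K9me3 bins (4.65%). The H3K9me3 bins concerned were 2 each in Prim2 and Lig1 and 1 each in Pold3 and Prim1. In Mcm7, 5 of 28 marked bins (17.9%) had copies. Per the study's methods, reads were aligned with restricted multi-mapping, which limits such sequence in the lists beforehand. Bins outside the lists were not searched for copies, so these shares have no baseline.

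The promoters were then searched for the E2F words TTTCCCGC, TTTCGCGC, TTTGCCGC and TTTGGCGC on both strands, from 250 bases before the annotated start to 50 bases after it. At least 1 match was found in 11 of the 39 genes (28.2%), compared with 2.72% of all protein-coding genes and 3.13% at matched length. The 11 genes were Mcm3, Mcm4, Mcm5, Mcm6, Orc3, Cdc6, Cdt1, Gins3, Pole, Pole2 and Rfc3, with 18 matches in all, some of which overlap each other in Mcm5 and Mcm6. TTTGGCGC was the most frequent, with 8 matches in 7 genes. The following 30-base windows of NCBIM37 are on the strand of the gene with the match in capitals. A single match is shown for each of 7 genes, namely 3 MCM genes, both licensing factors, Gins3 and Pole, although Mcm3 holds 2 matches and Mcm5 and Mcm6 hold 3 each.
Mcm3 chr1:20810337-20810366 (minus strand): acttgggaagtTTTGGCGCcaaggcggtgt
Mcm5 chr8:77633244-77633273 (plus strand): gcgccaagaacTTTCGCGCcaaaacgtcca
Mcm6 chr1:130256311-130256340 (minus strand): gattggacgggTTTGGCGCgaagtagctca
Cdc6 chr11:98769144-98769173 (plus strand): agtagagcggcTTTGGCGCgagttgacttt
Cdt1 chr8:125091936-125091965 (plus strand): ggaactaccttTTTGGCGCcatggcgcaaa
Gins3 chr8:98157407-98157436 (plus strand): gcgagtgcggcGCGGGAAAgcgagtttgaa
Pole chr5:110715351-110715380 (plus strand): acgtggagagcGCGCCAAAttctccccgga
The Gins3 match lay inside the H3K9me3 region at the start of that gene. The median H3K36me3 share was 83.0% in the 11 genes with a match (2.27% in Pole2 to 97.0% in Mcm5) and 61.2% in the 28 without (0 to 94.5%), and the ranges overlap almost fully. H3K9me3 was found in 2 of the 11 (Cdt1 and Gins3) and in 11 of the 28. CCAAT, the word bound by NF-Y and searched on both strands, was present in 25 promoters (64.1%), compared with 37.9% of all promoters and 38.4% at matched length. A match describes the sequence and is not evidence of binding.

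Further genes of the same pathway were examined in the same way. All 5 genes for replication-coupled chromatin assembly carried H3K36me3 and none H3K9me3 (34% and 40.2% of all genes), with a median H3K36me3 share of 66.6%. Of 26 further initiation and fork genes 21 carried H3K36me3 (median share 36.5% over the 26), 7 carried H3K9me3 and 4 carried both. Over all protein-coding genes the shares were 34%, 40.2% and 12.1%. No difference in H3K9me3 or in both marks is read from so few genes. The 5 without H3K36me3 were Pola1, Pold4, Pole3, Top2b and Rnaseh2b. H3K9me3 lay in Pola1, Pole4, Dna2, Top2b, Rnaseh2b, Clspn and Tipin. Among these 7 genes the largest H3K9me3 shares were 14.7% in Tipin, of the fork protection complex, and 9.74% in Clspn, an adaptor of the replication checkpoint. Of the genes for nucleotide supply, Tyms, which encodes thymidylate synthase, had H3K9me3 over 8.17% of the gene with 3 bins in both lists. Dut, which encodes the dUTPase, had H3K9me3 over 29.8% of the gene with 13 bins in both lists.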

How the data were processed

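H3K9me3 and H3K36me3 ChIP-seq regions in WT and G34R mouse ES cells were analysed from 1 deposited list per mark. The submitters' processing notes name Bowtie 1.0.0, bedtools 2.20.1 and mm9. Per the study's methods, the authors counted reads in 200 bp bins, kept bins inside genes that passed an enrichment threshold in WT or G34R, and merged neighbouring bins. Regions with extreme read counts were left out, so that a gene without a region is not shown to lack the mark. The methods can also be read as leaving out wide merged regions, whereas all listed regions were at least 600 bp wide, and this was not resolved here. The deposited values are coordinates only, with no count, signal or p-value, so that depth is unknown and no test was possible. The listed positions were read as 1-based and written unchanged.

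Genes were taken from GENCODE vM1 on NCBIM37, as whole gene spans. A region counted as touching a gene from 1 bp of overlap. Coverage, position in 10 equal parts of the gene, annotation classes (start within 1 kb, coding, untranslated, intron, in this order), length classes, copies and promoter words were computed in Python 3.11.15 with numpy 2.4.6, pandas 2.3.3, scipy 1.17.1 and pysam 0.24.0. The overlap routine was tested on simulated data. Promoter and bin sequences came from the NCBIM37 genome.

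The genes, gene lists and comparisons were chosen with earlier results of these data known. All 39 genes are named. The marks' coverage and positions are given for genes with H3K9me3 or without H3K36me3, the 5 largest shares and lengths covered, and the extremes of each role. Other pathway genes are named where they carry H3K9me3 or lack H3K36me3, and Ctf18 of that list matched no gene symbol. A gene of that list is not reported here, and the totals that include it were left out. The alternatives tried were stricter overlap, regions of at least 1 kb, joined regions, parts without overlapping genes, other length matching, other start definitions and equal weighting of genes.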

Additional observations from a re-analysis of the deposited data

How the results depend on the processing

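The counts of H3K36me3 genes (31 to 38 of 39), of genes with H3K9me3 near the start (3 to 4) and the median H3K36me3 share (57.9% to 70.6%) kept close to the values reported under all alternatives run for them. The lowest count, 31, required the region to lie wholly inside the gene. With regions of at least 1 kb only, H3K9me3 was left in 8 genes in place of 13, without Orc5, Orc6, Gins3, Gins4 and Rpa1, and both marks in 7, since Orc4 then lost H3K36me3. With at least 1 bin of the gene in both lists required, 8 genes held both marks. On autosomes only, the share of genes at matched length was 43.8% for H3K36me3 and 42.1% for H3K9me3. With each gene weighted equally, the last 5 of 10 equal parts of the gene held 64.0% of the H3K36me3 bins in place of 58.7%. Other marked genes of the same length were at 65.8%. The share of H3K9me3 bins in both lists was 41.7% without Lig1 and 77.5% without Prim2, in place of 53.5%. These omissions, the requirement of a shared bin, the omission of chromosome 8 and the span of the longest coding transcript were added after seeing the data. Leaving out the parts that other protein-coding genes overlap removed Cdt1 and Gins2, which have no other part.

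No paired analysis was possible because the lists join WT and G34R and each group held 1 library. The lists do not show how far a region stood above the threshold, nor the signal of genes without a region.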
